A study of Caenorhabditis elegans with 30 samples.

Results

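The cytosolic ribosomal protein genes of C. elegans, named rps for the small subunit and rpl for the large subunit, were followed across hypertonic stress and across 5 mutants that resist it. A gene was included if a probe set on the array was annotated to that gene alone and its symbol began with rps- or rpl-. This rule found 75 genes, 30 rps and 45 rpl, of the 17118 genes that a probe set reads alone, and these were read by 111 of the 20766 probe sets that stand for 1 gene. RefSeq lists 78 genes with such symbols, and rpl-18A, rpl-37.1 and rpl-37.2 had no probe set of their own. Levels are log2 of the deposited array intensity, so a difference of 1 is a doubling. A gene was tested where its third-highest value over the 30 arrays was at least 4, which 74 of the 75 genes passed, and rpl-42, at 2.39 to 2.54 on every array, did not. Where a gene had several probe sets, the one with the highest mean was used.

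The ribosome is built from rRNA and one copy of most of these proteins, so cells make the proteins in closely matched amounts, and their mRNAs are among the most abundant of a growing animal. The small subunit reads the mRNA, and the large subunit joins the amino acids and passes the new protein out through an exit tunnel. A few of the proteins are encoded in worms by paired genes, and such pairs (rpl-11.1 and rpl-11.2, rpl-23A.1 and rpl-23A.2, rpl-41.1 and rpl-41.2) were described copy by copy.

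The animals were whole young adults, sorted by size to leave out larvae, and each of 10 groups had 3 arrays. Wild type N2 worms were exposed to 200 mM NaCl as young adults for 15 min, 1 h or 6 h, or were raised on it for 1 generation. The mutants dpy-9(e12), dpy-10(e128), osm-11(n1604), osm-8(n1518) and osm-7(n1515) were grown on isotonic plates without salt stress. The osm-7 and osm-11 genes encode small secreted proteins, osm-8 a secreted mucin-like protein, and dpy-9 and dpy-10 cuticle collagens. N2 worms on isotonic plates, with 51 mM NaCl per the labels, served for all 9 comparisons, so these comparisons share the same 3 control arrays. Each mutant was represented by 1 allele, and the study hybridised the best of several RNA preparations by RNA quality, at least for the time course. Nothing in the labels says how far the 3 samples of a group were independent, so the p-values measure only the spread between these samples.

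Arrays of 1 group correlated at 0.99 to 0.998, and the number of arrays limits the precision of every value here. The osm-11 replicate 2 stood apart, with a summed intensity of 9360000 over all probe sets, against 10300000 to 11100000 on the other arrays, and a median over the ribosomal protein genes of 14.26, against 14.44 and 14.43 in the other osm-11 samples. Markers of cell types moved strongly between groups. The 26 sperm markers tested (the msp genes, gsp-3, gsp-4 and spe-11) had a summed intensity of 316000 to 351000 in dpy-9 worms, 255000 to 273000 in dpy-10 worms, 189000 to 213000 in osm-8 worms, 11300 to 27600 in osm-11 worms and 6630 to 10200 in osm-7 worms, against 11000 to 23700 in N2 isotonic worms. The sum over the 13 germline and oocyte markers was 34200 to 43000 in dpy-9 worms, 27000 to 31900 in dpy-10 worms and 68500 to 72800 in osm-8 worms, against 120000 to 126000 in N2 isotonic worms. In whole worms, fewer cells of a type, less RNA per cell and a difference in adult age between groups cannot be told apart. The labels give no adult age.

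Ribosomal protein transcripts were bright, and their levels spread less than those of all genes tested. Of the 74 genes, 71 had a mean log2 level of 13 or more (13.53 to 15.26), which put each of their probe sets above at least 99.1% of all probe sets. The other 3 were rpl-11.2 (12.63), rpl-23A.1 (12.37) and rpl-41.1 (11.58). The highest value of any of these genes on any array was 15.55, and the highest value of any probe set was 16.09. Brightness also depends on the probes, so the levels of different genes were not ranked. The median SD between the arrays of a group was 0.0806 for the ribosomal protein genes, against 0.222 for all 8990 genes tested. The range of the 10 group means had a median of 0.293, against 1.44 for all genes. Neither measure was set against other genes of like brightness, and the part of brightness in them was not tested. The smallest range among the bright genes was that of rps-17, a small subunit protein, with a mean of 14.80 in dpy-10, the lowest, and 14.94 in N2 isotonic worms, the highest.

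**Figure D1:**
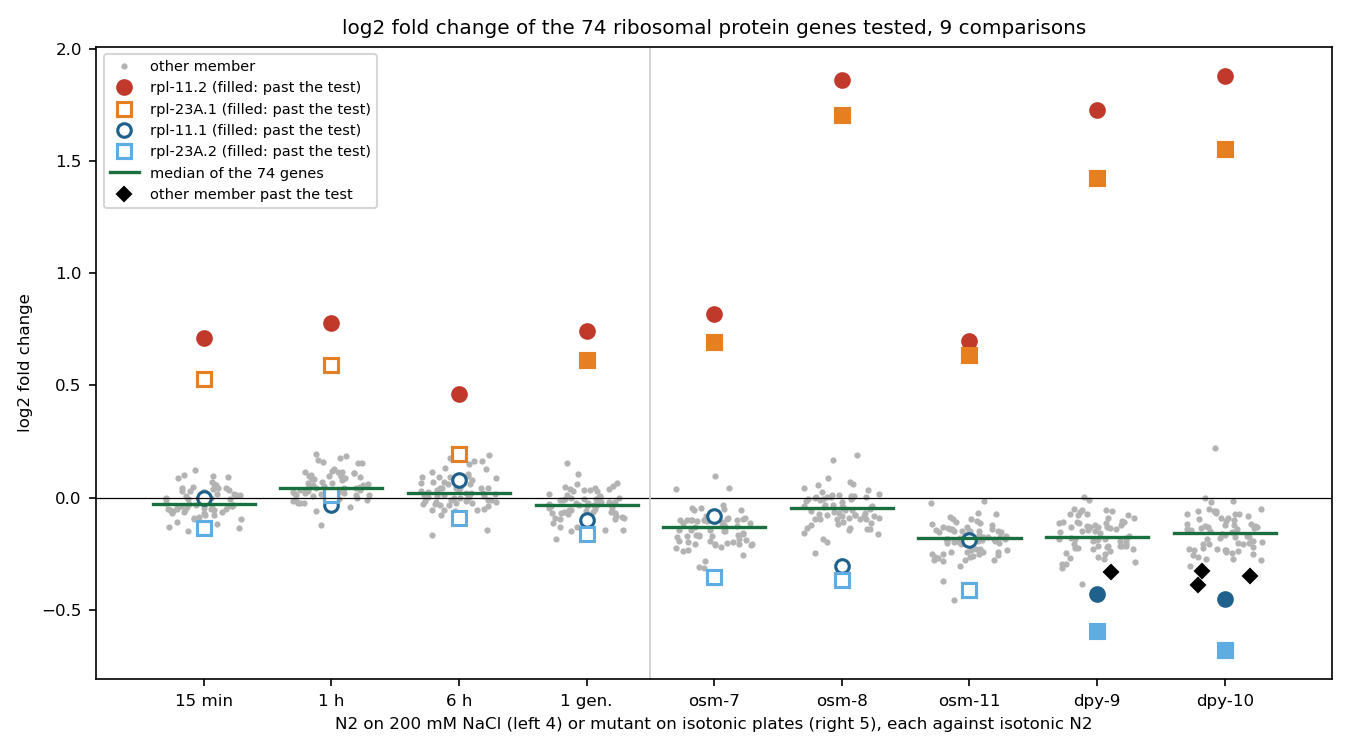
Log2 fold change against N2 isotonic worms (vertical axis) for each of the 74 ribosomal protein genes in each of the 9 comparisons, with genes past the test marked. In the 5 mutant comparisons rpl-11.2 and rpl-23A.1 lie above the rest, and in dpy-9 and dpy-10 rpl-23A.2 (-0.59 and -0.68) and rpl-11.1 (-0.43 and -0.45) lie lowest.

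A gene passed the test in a comparison where its adjusted p did not exceed 0.01, from limma with Benjamini-Hochberg adjustment over all 12031 probe sets kept. In N2 on 200 mM NaCl, few ribosomal protein genes passed. The count was 1 of 74 at 15 min (15.1% of all genes tested passed), 1 at 1 h (8.87% of all genes), 1 at 6 h (6.95%) and 2 after 1 generation (9.69%), and all of these were higher on salt (7.19%, 6.01%, 4.64% and 7.11% of all genes were higher). The gene that passed at each exposure was rpl-11.2, and after 1 generation it was joined by rpl-23A.1. No member passed as lower, although 7.92%, 2.86%, 2.31% and 2.58% of all genes did in the same order of exposures. At an unadjusted p under 0.05, in either direction, there were 4, 6, 3 and 6 of the 74 genes, beside 41.7%, 29.6%, 23.5% and 30.3% of all genes. Over the 4 exposures together, the F test was passed by rpl-11.2 (adjusted p 3.05e-04) and missed by rpl-23A.1 (adjusted p 0.0111), and 18.6% of all genes passed it.

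The medians of the family stayed near 0 on salt. The median log2 fold change of the 74 genes was -0.03 at 15 min, 0.04 at 1 h, 0.02 at 6 h and -0.03 after 1 generation, beside medians over all genes of -0.10, -0.01, -0.00 and -0.04, and after each array was centred on the median of all probe sets kept it was 0.0809, 0.00188, -0.0424 and -0.0425, with the sign turned at 15 min and 6 h. Apart from rpl-11.2 and rpl-23A.1, the 72 other genes ranged from -0.15 to 0.12 at 15 min, -0.12 to 0.20 at 1 h, -0.17 to 0.19 at 6 h and -0.18 to 0.15 after 1 generation. Median levels over the 74 genes, averaged over the 3 arrays, were 14.55 on isotonic plates, 14.54 at 15 min, 14.61 at 1 h, 14.59 at 6 h and 14.53 after 1 generation, with a pooled SD between arrays of 0.0409.

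The gene rpl-11.2 encodes 1 of the 2 worm copies of RPL11, which binds the 5S rRNA beside RPL5 and touches the tRNA in the peptidyl site. In N2 it read 11.82, 11.66 and 11.52 on isotonic plates, then 12.43, 12.31 and 12.38 at 15 min, 12.42, 12.49 and 12.41 at 1 h, 12.11, 12.24 and 12.03 at 6 h, and 12.25, 12.60 and 12.37 after 1 generation. No exposed array overlapped the isotonic ones. The changes were 0.71 at 15 min (SE 0.101, adjusted p 3.09e-04), 0.78 at 1 h (adjusted p 2.39e-04), 0.46 at 6 h (adjusted p 9.02e-03) and 0.74 after 1 generation (adjusted p 2.69e-04), that is 1.64-fold, 1.71-fold, 1.38-fold and 1.67-fold. A second probe set for rpl-11.2 gave 0.61, 0.68, 0.42 and 0.72, of which the 6 h value missed the threshold (adjusted p 0.0127). The 6 h call was lost without any 1 of the 6 h arrays or without isotonic replicate 2 or 3 (changes 0.388 to 0.510, adjusted p 0.0144 to 0.0445), with all 30 arrays in 1 fit (adjusted p 0.0587) and with arrays centred (adjusted p 0.0101). Between exposures the differences did not pass, as 6 h against 1 h gave -0.32 (adjusted p 0.0589), and 1 generation against 6 h gave 0.28 (adjusted p 0.102).

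The gene rpl-23A.1, also listed as rpl-25.1, encodes a copy of the protein at the mouth of the exit tunnel, where the signal recognition particle docks. Its levels were 11.379, 11.426 and 11.930 on isotonic plates, 12.001, 12.237 and 12.087 at 15 min, 12.384, 12.066 and 12.061 at 1 h, 11.788, 11.714 and 11.816 at 6 h, and 12.275, 12.124 and 12.170 after 1 generation. The isotonic arrays spread widely, with replicate 3 above the 3 arrays of 6 h. The changes were 0.53 (adjusted p 0.0130), 0.59 (adjusted p 0.0107), 0.19 (adjusted p 0.462) and 0.61 (adjusted p 8.34e-03) with an SE of 0.137. The 1 generation call was lost without isotonic replicate 1 or 2 or any 1 of the 1 generation arrays (0.512 to 0.644, adjusted p 0.0209 to 0.0389), and with arrays centred (adjusted p 0.0271) or quantile normalised (adjusted p 0.0363). Without isotonic replicate 3, rpl-23A.1 passed at 15 min (0.71, adjusted p 7.21e-04) and at 1 h (0.77, adjusted p 6.06e-04).

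**Figure D2:**
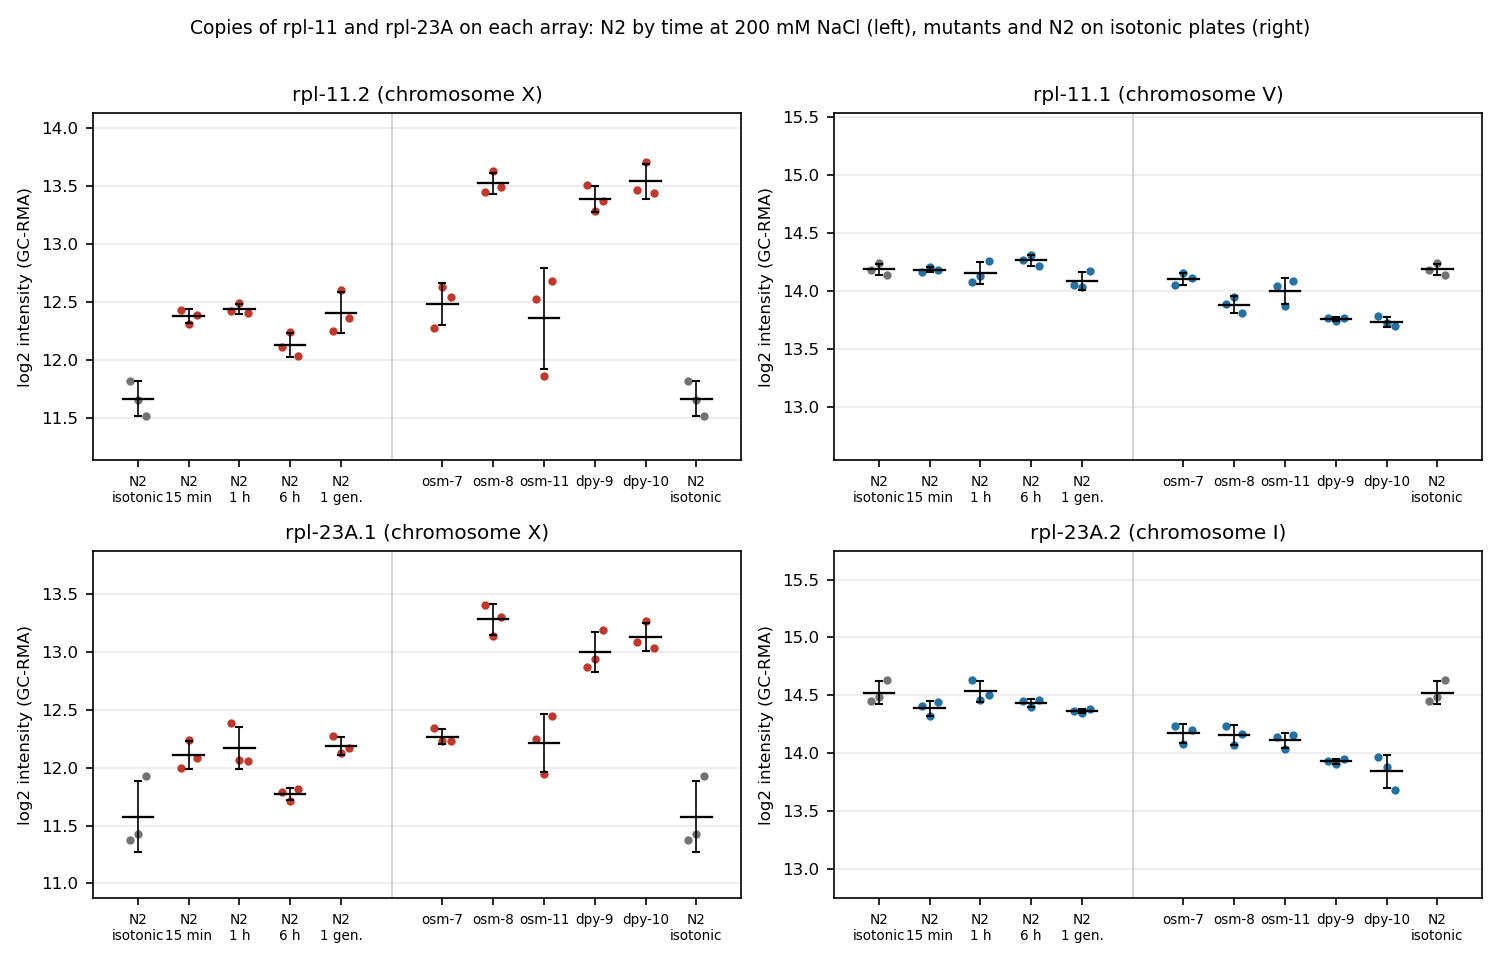
Log2 intensity (vertical axis) of rpl-11.2, rpl-11.1, rpl-23A.1 and rpl-23A.2 in the 10 groups, with a point for each of the 3 arrays and the mean and SD of each group, and the N2 isotonic arrays drawn beside both the time course and the mutants. The group means of rpl-11.2 lie between 11.66 (N2 isotonic) and 13.54 (dpy-10), and those of rpl-11.1 between 14.26 (6 h) and 13.73 (dpy-10).

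The partner copies of both genes passed at no exposure to salt. Levels of rpl-11.1 were 14.18, 14.24 and 14.14 on isotonic plates, 14.17, 14.21 and 14.18 at 15 min, 14.07, 14.13 and 14.26 at 1 h, 14.26, 14.31 and 14.22 at 6 h, and 14.05, 14.03 and 14.18 after 1 generation. The arrays of rpl-23A.2 read 14.45, 14.49 and 14.63 on isotonic plates, 14.41, 14.32 and 14.44 at 15 min, 14.63, 14.46 and 14.51 at 1 h, 14.45, 14.40 and 14.46 at 6 h, and 14.36, 14.35 and 14.38 after 1 generation. For rpl-11.1 each exposure overlapped the isotonic range. For rpl-23A.2, all 3 arrays at 15 min and all 3 after 1 generation lay below the isotonic ones, with changes of -0.13 (adjusted p 0.177) and -0.16 (adjusted p 0.148).

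In the mutants, the same pair of genes passed as higher in all 5 strains, although in osm-7 and osm-11 this depended on the processing. The counts past the test were 2 of 74 in osm-7 worms (9.86% of all genes), 2 in osm-8 worms (47.3%), 2 in osm-11 worms (16.8%), 5 in dpy-9 worms (70.7%) and 7 in dpy-10 worms (73.4%). In osm-7, osm-8 and osm-11 both calls were higher, where 7.04%, 20.9% and 10.3% of all genes were higher, and none was lower, where 2.81%, 26.4% and 6.45% were. In dpy-9, 2 were higher (30% of all genes) and 3 lower (40.6%), while dpy-10 had 2 higher (33.0%) and 5 lower (40.4%). At an unadjusted p under 0.05, in either direction, the counts of 74 were 7 in osm-7 worms (34.5% of all genes), 5 in osm-8 worms (66.8%), 20 in osm-11 worms (43.7%), 19 in dpy-9 worms (80.2%) and 18 in dpy-10 worms (81.7%). With no filter on low values, 1 member passed as higher in osm-7 worms (3.26% of all genes) and 0 in osm-11 worms (4.91%). As lower, 1 and 3 passed there (1.82% and 3.65%). With the replicate number as a block, 1 was higher in osm-7 worms (6.37%) and 0 in osm-11 worms (9.83%).

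Levels of rpl-11.2 in the mutants were 12.28, 12.63 and 12.54 in osm-7 worms, 13.45, 13.63 and 13.50 in osm-8 worms, 12.53, 11.87 and 12.68 in osm-11 worms, 13.51, 13.28 and 13.37 in dpy-9 worms, and 13.47, 13.71 and 13.45 in dpy-10 worms, against 11.82, 11.66 and 11.52 in N2 isotonic worms. No mutant array overlapped the N2 arrays, and osm-11 replicate 2 came closest. Folds over N2 were 1.76 in osm-7 worms (log2 0.82, SE 0.181, adjusted p 4.83e-03), 3.64 in osm-8 worms (log2 1.86, adjusted p 3.44e-07), 1.62 in osm-11 worms (log2 0.70, adjusted p 9.28e-03), 3.31 in dpy-9 worms (adjusted p 3.02e-07) and 3.68 in dpy-10 worms (log2 1.88, adjusted p 9.41e-08). The second probe set gave 0.69, 1.85, 0.59, 1.66 and 1.70 in the same strains. The osm-7 call was lost without isotonic replicate 2 or 3 or osm-7 replicate 2 or 3 (0.745 to 0.815, adjusted p 0.0179 to 0.0250). The osm-11 call was lost without any 1 isotonic array or osm-11 replicate 1 or 3 (0.535 to 0.774, adjusted p 0.0147 to 0.0527), and without osm-11 replicate 2 the change was 0.94 (adjusted p 2.74e-04).

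Levels of rpl-23A.1 were 12.34, 12.23 and 12.23 in osm-7 worms, 13.41, 13.14 and 13.30 in osm-8 worms, 12.25, 11.95 and 12.45 in osm-11 worms, 12.87, 12.94 and 13.19 in dpy-9 worms, and 13.09, 13.27 and 13.04 in dpy-10 worms, against 11.38, 11.43 and 11.93 in N2 isotonic worms. The groups did not overlap, although osm-11 replicate 2 and N2 isotonic replicate 3 differed little. The changes were 0.69 in osm-7 worms (SE 0.165, adjusted p 8.11e-03), 1.71 in osm-8 worms (adjusted p 3.28e-07), 0.64 in osm-11 worms (adjusted p 9.22e-03), 1.42 in dpy-9 worms (adjusted p 9.53e-07) and 1.55 in dpy-10 worms (adjusted p 3.02e-07). Losing isotonic replicate 1 or 2 or any 1 osm-7 array ended the osm-7 call (0.592 to 0.711, adjusted p 0.0223 to 0.0454), and losing isotonic replicate 1 or 2 or osm-11 replicate 1 or 3 ended the osm-11 call (0.521 to 0.617, adjusted p 0.0303 to 0.0492). With arrays centred, or after quantile normalization, both calls were also lost (adjusted p 0.0151 and 0.0118 in osm-7 worms, and 0.0183 and 0.0109 in osm-11 worms). The calls of both genes in osm-8, dpy-9 and dpy-10 held without any single array.

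A change of at least 3-fold together with the test was met by rpl-11.2 in osm-8, dpy-9 and dpy-10 and by rpl-23A.1 in osm-8 worms, and by no other ribosomal protein gene in the 9 comparisons, where 10.7%, 28.9% and 33.6% of all genes met it in those strains. It was met by 1.71%, 1.40%, 1.67% and 1.46% of all genes at the successive exposures, 2.68% in osm-7 worms and 4.15% in osm-11 worms. Set directly against osm-7, osm-8 had higher rpl-11.2 by 1.04 (SE 0.181, adjusted p 3.35e-04) and higher rpl-23A.1 by 1.01 (SE 0.165, adjusted p 1.82e-04), and these were the 2 members past that test (18.6% of all genes). In limma, no member passed in osm-11 against osm-7 (1.47% of all genes), dpy-10 against dpy-9 (3.88%), dpy-9 against osm-8 (31.3%) or dpy-10 against osm-8 (37.7%), nor in 1 h against 15 min (4.48%), 6 h against 1 h (7.81%) or 1 generation against 6 h (5.31%). At an unadjusted p under 0.05 the counts in those 7 comparisons were 0, 0, 3, 3, 6, 3 and 10 of the 74, beside 1026, 1935, 4685, 5041, 2279, 2390 and 2256 of all 8990 genes.

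The partner copies fell in the dpy mutants by the test on the values as deposited, and all but 1 of these 4 calls were lost when each array was centred on its median. The arrays of rpl-11.1 read 13.77, 13.74 and 13.77 in dpy-9 worms and 13.78, 13.72 and 13.70 in dpy-10 worms, against 14.18, 14.24 and 14.14 in N2 isotonic worms, with no overlap. The changes were -0.43 in dpy-9 worms (SE 0.102, adjusted p 1.26e-03) and -0.45 in dpy-10 worms (adjusted p 7.52e-04). In osm-8 it read 13.89, 13.95 and 13.81, a change of -0.30 (adjusted p 0.0181).

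For rpl-23A.2 the arrays read 13.93, 13.91 and 13.95 in dpy-9 worms and 13.96, 13.88 and 13.68 in dpy-10 worms, against 14.45, 14.49 and 14.63 in N2 isotonic worms. The changes, -0.59 in dpy-9 worms (SE 0.112, adjusted p 1.57e-04) and -0.68 in dpy-10 worms (adjusted p 3.73e-05), were the largest falls of any member in these strains. In osm-7, osm-8 and osm-11 the changes were -0.35, -0.37 and -0.41 (adjusted p 0.0389, 0.0106 and 0.0120). The dpy calls of rpl-11.1 and rpl-23A.2 held without any single array. With arrays centred, rpl-11.1 changed by -0.30 in dpy-9 worms (adjusted p 0.0231) and -0.33 in dpy-10 worms (adjusted p 0.0120), and rpl-23A.2 by -0.46 in dpy-9 worms (adjusted p 0.0102) and -0.56 in dpy-10 worms (adjusted p 2.71e-03), the call that held.

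Among the probe sets of these pairs, those of rpl-11.1, rpl-11.2 and rpl-23A.1 end in _s_at, which marks probes that may match more than 1 transcript, so signal shared between copies cannot be told apart from their own. The probe set of rpl-23A.2 carries no such mark. Both copies that rose lie on chromosome X and are the 2 members on X, while rpl-11.1 lies on V and rpl-23A.2 on I. The other members lie on I, II, III, IV and V. Over all genes the median change on X was 0.12 in osm-7 worms, 0.27 in osm-8 worms, 0.15 in osm-11 worms, 0.47 in dpy-9 worms and 0.64 in dpy-10 worms, against -0.14, -0.27, -0.17, -0.37 and -0.34 on the autosomes (1137 and 7828 genes). At the successive exposures it was -0.00, 0.00, -0.02 and 0.05, against -0.11, -0.01, -0.00 and -0.05. The part of chromosome X in the result was not tested.

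Markers of body wall muscle and sperm are given beside rpl-11.2 and rpl-23A.1, since both lists changed in several of these comparisons. Hypodermis and neuron lists changed too, so the choice does not single out muscle and sperm. The 8 intestine markers summed to 141000 to 153000 in N2 isotonic worms. In the mutants their sum was 79600 to 95000 in dpy-9 worms, 113000 to 121000 in dpy-10 worms and 140000 to 145000 in osm-8 worms. It was 158000 to 181000 in osm-7 worms and 165000 to 187000 in osm-11 worms. Of 6 hypodermis markers, 4 passed as higher in each of dpy-10, dpy-9 and osm-8, with 1, 2 and 0 lower. In that order, 4, 4 and 2 of 6 neuron markers were higher and 2, 1 and 1 lower. At the successive exposures 2, 2, 0 and 2 hypodermis markers were higher, and 1 was lower at 6 h. For neurons 1, 2, 0 and 1 were higher there, and 1 was lower at 15 min. The 7 body wall muscle markers had a summed intensity of 7640 to 8220 in N2 on isotonic plates, 11000 to 12300 at 15 min, 12500 to 13600 at 1 h, 7630 to 7770 at 6 h and 12000 to 12400 after 1 generation. In the mutants the sum was 11800 to 13900 in osm-7 worms, 18800 to 20000 in osm-8 worms, 9640 to 14400 in osm-11 worms, 22600 to 27100 in dpy-9 worms and 26700 to 28700 in dpy-10 worms, against 7640 to 8220 in N2 isotonic worms. All 7 rose in osm-8, dpy-9 and dpy-10, 2 rose in osm-7 worms and 3 in osm-11 worms, and 3, 3, 0 and 3 rose at the successive exposures. Of all genes, 7.04% and 10.3% were higher in osm-7 and osm-11, and 7.19%, 6.01%, 4.64% and 7.11% at the successive exposures. The sperm markers summed to 11000 to 23700 on isotonic plates, 95400 to 97100 at 15 min, 38700 to 60500 at 1 h, 2680 to 4050 at 6 h and 49800 to 54700 after 1 generation. At 6 h, 23 of the 26 sperm markers were lower (median -2.33), beside 2.31% of all genes. At that time 0 of the 7 muscle markers passed in limma. In osm-7 and osm-11 the median change of the sperm markers was -1.02 and -0.08. In osm-7 worms 3 of the 26 were lower, beside 2.81% of all genes. None of the muscle or neuron markers had a group mean under 4 in any group, and at most 3 sperm markers and 2 hypodermis markers did. The part of these tissues in the levels of the 2 genes was not tested.

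In the third pair neither copy passed. Each copy was read by 1 probe set ending in _x_at, so signal shared with other transcripts cannot be told apart from its own. RPL41 is the smallest protein of the eukaryotic ribosome. The changes of rpl-41.1 ran from -0.31 in osm-7 worms to 0.22 in dpy-10 worms and those of rpl-41.2 from -0.12 in dpy-10 worms to 0.04 in osm-7 worms, over all 9 comparisons. The symbols rpl-7 and rpl-7A, or rpl-36 and rpl-36A, name different proteins and are not such pairs.

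Besides the paired genes, 4 members passed in a dpy mutant, all as lower. The rps-27 transcript, for a zinc finger protein of the small subunit, read 14.21, 14.23 and 14.25 in dpy-9 worms, against 14.56, 14.53 and 14.60 in N2 isotonic worms, a change of -0.33 (SE 0.107, adjusted p 9.60e-03), and in dpy-10 worms the change was -0.24 (adjusted p 0.0521). The rpl-4 transcript, whose protein reaches into the exit tunnel, read 14.25, 14.23 and 14.28 in dpy-10, against 14.55, 14.62 and 14.57 in N2 isotonic worms (-0.32, SE 0.101, adjusted p 7.79e-03). The rpl-5 transcript, for the partner of RPL11 on 5S rRNA, read 14.11, 13.99 and 14.05 in dpy-10 worms, against 14.22, 14.45 and 14.52 in N2 isotonic worms (-0.35, SE 0.111, adjusted p 8.85e-03).

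For rps-2, whose protein helps the small subunit decode accurately, the arrays read 13.95, 13.78 and 13.69 in dpy-10 worms, against 14.11, 14.25 and 14.23 in N2 isotonic worms (-0.39, SE 0.110, adjusted p 4.28e-03), and in dpy-9 worms the change was -0.27 (adjusted p 0.0343). None of these 4 overlapped N2 in the strain where it passed. The rps-27 and rpl-4 calls were lost without any 1 of the 6 arrays compared (adjusted p 0.0174 to 0.0277 and 0.0156 to 0.0282). The rpl-5 call was lost without isotonic replicate 2 or 3 or any 1 dpy-10 array (0.0132 to 0.0407), and the rps-2 call without isotonic replicate 2 or 3 or dpy-10 replicate 2 or 3 (0.0110 to 0.0229), and all 4 were lost with arrays centred.

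By place in the ribosome, the 5S particle (rpl-5, rpl-11.1, rpl-11.2) held 12 of 27 gene-by-comparison values past the test, 9 higher and 3 lower, beside 28.7% of such values over all genes. All 9 higher values were of rpl-11.2, against the same 3 control arrays, and the highest change of rpl-5 or rpl-11.1 was 0.08. The exit tunnel group of 10 genes held 9 of 90, 6 higher (all of rpl-23A.1) and 3 lower (rpl-4 and rpl-23A.2). At the peptidyl transferase centre 1 of 27 passed (rpl-4), and among 4 genes of the decoding site and mRNA path 1 of 36 (rps-2). In limma 0 of 27 passed for the mRNA exit platform (rps-14, rps-26, rps-28), where changes ran from -0.28 to 0.08, and none of 9 for rps-6, the S6 kinase substrate, where they ran from -0.24 to 0.04. Each comparison shares its 3 control arrays with the others.

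Family medians lay below N2 in the mutants on the values as deposited. The median log2 fold change of the 74 genes was -0.13 in osm-7 worms, -0.05 in osm-8 worms, -0.18 in osm-11 worms, -0.17 in dpy-9 worms and -0.16 in dpy-10 worms, beside medians over all genes of -0.11, -0.21, -0.13, -0.27 and -0.24. With each array centred it was -0.0830, 0.0252, -0.148, -0.0465 and -0.0411 in the same order, with the sign turned in osm-8. The change was below 0 for 69, 54, 72, 71 and 71 of the 74 genes, beside 5427, 5250, 5655, 5174 and 5059 of all 8990 genes. All 3 arrays lay below the 3 N2 arrays for 33 genes in osm-7 worms (23.9% of all genes), 13 in osm-8 worms (43.1%), 47 in osm-11 worms (31.1%), 49 in dpy-9 worms (48.7%) and 41 in dpy-10 worms (47.3%), and above them for 2, 3, 2, 2 and 2 genes (16.1%, 28.3%, 17.9%, 34.0% and 36.3%). Both subunits moved by similar amounts, with medians of -0.12, -0.06, -0.19, -0.17 and -0.19 for the 30 rps genes, and -0.14, -0.04, -0.17, -0.17 and -0.14 for the 44 rpl genes, in the same order of strains. Apart from rpl-11.2 and rpl-23A.1, the 72 other genes ranged from -0.35 to 0.10 in osm-7 worms, -0.37 to 0.19 in osm-8 worms, -0.45 to -0.01 in osm-11 worms, -0.59 to 0.00 in dpy-9 worms and -0.68 to 0.22 in dpy-10 worms. Median levels over the 74 genes averaged 14.42 in osm-7 worms, 14.52 in osm-8 worms, 14.38 in osm-11 worms, 14.39 in dpy-9 worms and 14.40 in dpy-10 worms, against 14.55 in N2 isotonic worms. Without osm-11 replicate 2 the osm-11 median change was -0.12.

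**Figure D3:**
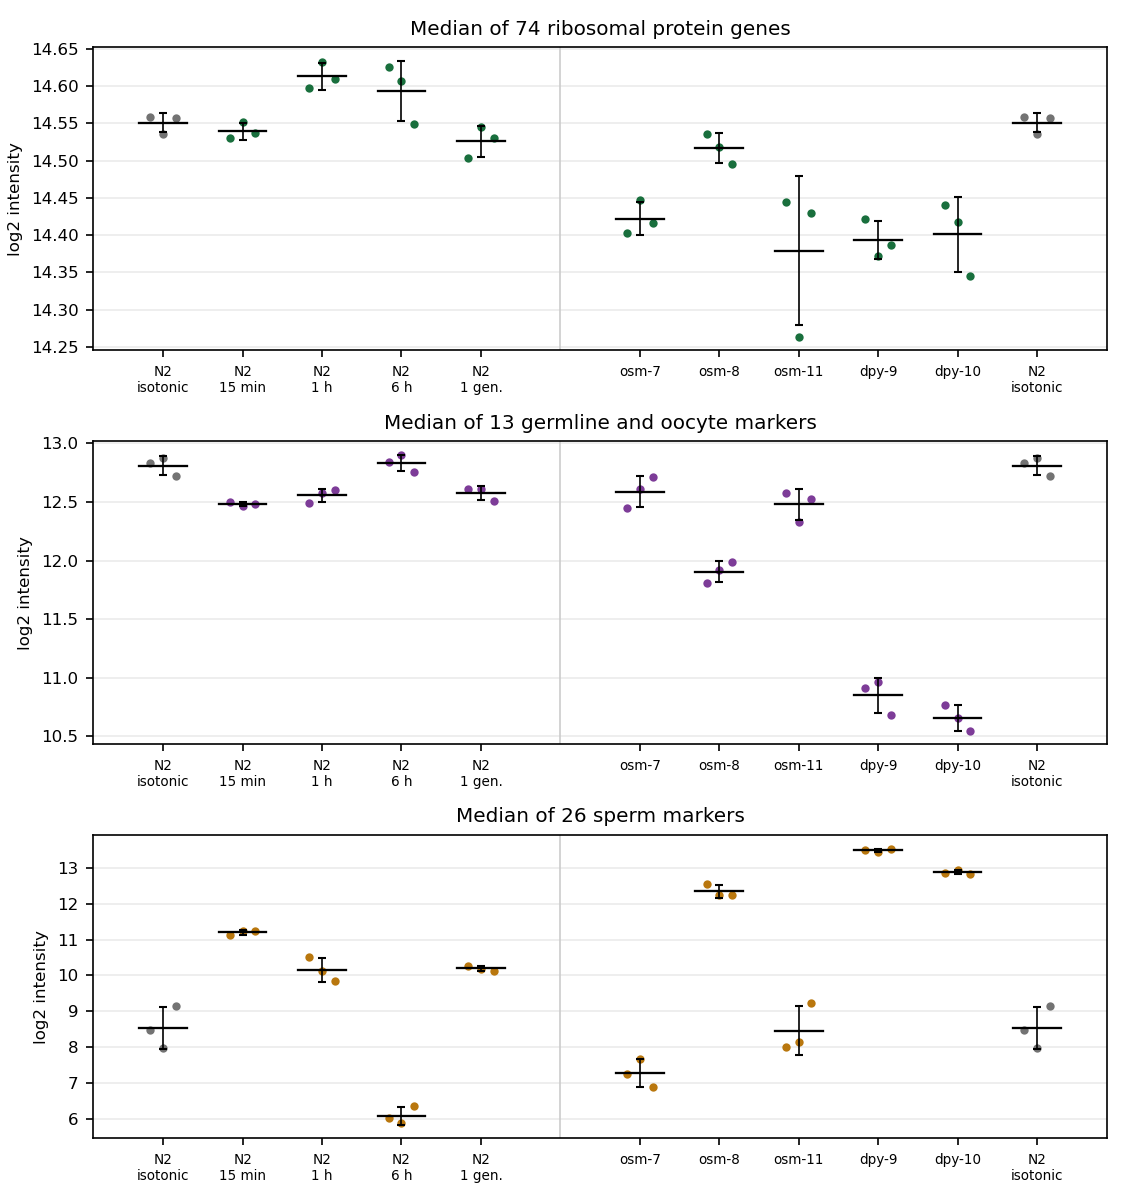
Median log2 intensity per array (vertical axes) of the 74 ribosomal protein genes, of the 13 germline and oocyte markers and of the 26 sperm markers, for the 3 arrays of each of the 10 groups with their mean and SD, and with the N2 isotonic arrays drawn beside both the time course and the mutants. Ribosomal protein medians lie between 14.26 (osm-11 replicate 2) and 14.63 (1 h replicate 2).

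The number of falls in the dpy mutants depended on the processing. In dpy-9 and dpy-10, 3 and 5 genes were lower as reported, against 17 and 18 with no filter on low values (23.6% and 23.1% of all genes), 14 and 11 with all 30 arrays in 1 fit (43.5% and 42.8%), 15 and 14 with the threshold on the adjusted p at 0.05 (45.9% and 45.2%), 4 and 8 after quantile normalization (41.4% and 41.8%) and 0 and 1 after each array was centred (37.7% and 38.5%). With no filter 75 members were counted and their share was close to that of all genes, and under the other settings it was below it. With that looser threshold the counts in either direction were 2 at 15 min (29.4% of all genes), 2 at 1 h (16.8%), 4 in osm-8 worms (62.4%), 5 in osm-11 worms (30.8%), 17 in dpy-9 worms (78.8%) and 16 in dpy-10 worms (81.0%). The array medians that the centring set equal differed from N2 by -0.128 in dpy-9 worms, -0.117 in dpy-10 worms and, on salt, -0.111 at 15 min. The germline and oocyte sums were 34200 to 43000 in dpy-9 worms and 27000 to 31900 in dpy-10 worms. They were 68500 to 72800 in osm-8 worms and 96000 to 97200 at 15 min, against 120000 to 126000 in N2 isotonic worms. Their part in the falls was not tested.

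**Figure D4:**
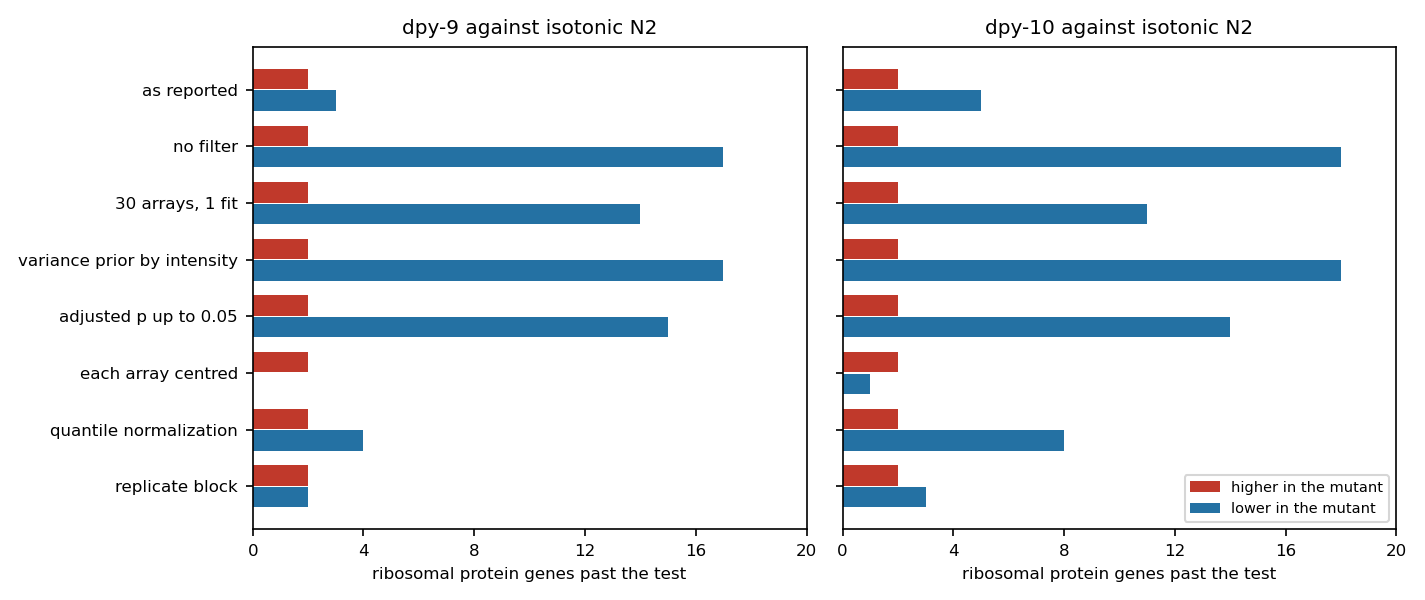
Number of ribosomal protein genes past the test as higher and as lower in dpy-9 (left panel) and in dpy-10 (right panel) against N2 isotonic worms (horizontal axes) under each way of processing (vertical axis). The lower counts range from 0 to 17 in dpy-9 worms and from 1 to 18 in dpy-10 worms.

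Other parts of the translation machinery are given for context, by counts past the test, beside 26.4% of all genes lower in osm-8 worms, 6.45% in osm-11 worms, 40.6% in dpy-9 worms and 40.4% in dpy-10 worms. Of 7 ribosomal proteins with other symbols (rack-1, rplp-0, rplp-1, rplp-2.1, rplp-2.2, rpsa-1, ubq-2), 0 passed in any of the 9 limma comparisons. Of 57 mitochondrial ribosomal protein genes tested, 10 were lower in osm-11 worms, 10 in dpy-9 worms and 15 in dpy-10 worms, and at most 2 were higher in any comparison. Of 26 ribosome biogenesis genes, 7 were lower in osm-8 worms, 10 in osm-11 worms, 12 in dpy-9 worms and 11 in dpy-10 worms, with 0 higher in these strains. One of them was fib-1, the rRNA methyltransferase fibrillarin, at -0.67 in osm-11 worms (adjusted p 1.29e-03) and -0.58 in dpy-10 worms (adjusted p 6.53e-04). Of 8 TOR pathway genes, 5 were lower in osm-8 worms, 7 in dpy-9 worms and 6 in dpy-10 worms, and the kinase gene sgk-1 was higher, by 1.40, 1.62 and 2.24.

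Of 39 translation factor genes, 4, 1, 0 and 3 were higher at the successive exposures, beside 7.19%, 6.01%, 4.64% and 7.11% of all genes. In osm-8, dpy-9 and dpy-10, 8, 13 and 14 were lower, beside 26.4%, 40.6% and 40.4% of all genes. Duplicated factors were looked at after the values had been seen. The eIF5A gene iff-2 was higher by 0.64 at 15 min, 0.74 at 1 h, 0.79 after 1 generation, 1.82 in osm-8 worms, 1.69 in dpy-9 worms and 1.76 in dpy-10 worms, while the log2 fold change of its partner iff-1 was -0.53, -0.81 and -0.77 in these 3 mutants. The elongation factor gene eef-1A.2 was higher by 0.78, 0.99 and 0.81 there, and eef-1A.1 changed by -0.14 (adjusted p 0.295), -0.37 and -0.39. Of 107 other bright genes, with a mean of at least 13, 31.8% passed at 15 min, 14% at 1 h, 15.9% at 6 h, 28% after 1 generation, 21.5% in osm-7 worms, 48.6% in osm-8 worms, 32.7% in osm-11 worms, 57.9% in dpy-9 worms and 60.7% in dpy-10 worms, a description added after the values had been seen.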

How the data were processed

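Total RNA from whole worms was labelled as cRNA and hybridised to Affymetrix C. elegans arrays. GC-RMA, run by the authors in Partek's Genomics Suite, gave the deposited intensity values on a linear scale, 1 for each of 22625 probe sets and 30 arrays. Versions are not given in the sources used here. Their log2 was taken, and 12031 probe sets with a third-highest value of at least 4 were kept.

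Fits used limma 3.58.1 in R 4.3.3 (lmFit, eBayes) on group means, separately for the 15 N2 arrays and the 18 isotonic arrays. Each adjusted p is a Benjamini-Hochberg value over all probe sets kept, with a threshold of 0.01. Fits were tested on simulated data. Tables used Python 3.11.15 and pandas 2.3.3. A gene with several probe sets counted once, by the brightest. Genes were named when they changed most in a comparison, had a paired copy, lay at an extreme of level or range, or belonged to a structural group. Members, lists and tests were chosen with earlier results of these data known. Alternatives changed the low-value filter, the arrays fitted together, centring, quantile normalization, probe set type, threshold, replicate number as a block and leaving out each array.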

Additional observations from a re-analysis of the deposited data

Results flagged for a closer look

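Among the mutants with an osm gene affected, osm-8 differed from osm-7 in rpl-11.2 and rpl-23A.1. Both were higher in osm-8 than in osm-7 by a direct limma test, rpl-11.2 by 1.043 (SE 0.181, adjusted p 3.35e-04) and rpl-23A.1 by 1.013 (SE 0.165, adjusted p 1.82e-04). The levels did not overlap, with rpl-11.2 at 13.45 to 13.63 in osm-8 and 12.28 to 12.63 in osm-7, and rpl-23A.1 at 13.14 to 13.41 in osm-8 and 12.23 to 12.34 in osm-7. Of the 74 members, 2 passed this contrast, beside 18.6% of all genes. In the same contrast all 26 sperm markers and 3 of the 7 body wall muscle markers were higher. So were 3 of 6 hypodermis markers and 1 of 6 neuron markers, while 7 of 13 germline and oocyte markers were lower. The part of these tissues in the difference was not tested.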

How the results depend on the processing

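Of the alternatives tried on counts and medians, 339 values stayed close and 105 moved. Close meant counts within 1.5 times and medians within 0.0409, the SD between arrays. Single genes were followed where the adjusted p as reported was at most 0.05. Of these values, 289 stayed on the same side of the threshold, 29 came to pass and 78 no longer passed. A change of direction was counted only where the gene had passed as reported, and 0 were found. Counts were compared by their total, so a count could stay close while its genes or their direction changed. With no filter, counts past the test were 2 at 15 min, 0 at 6 h, 1 after 1 generation, 4 in osm-8 worms, 19 in dpy-9 worms, 20 in dpy-10 worms, 3 in dpy-9 against osm-8 and 2 in dpy-10 against osm-8. Those lower were 1 at 15 min (3.48% of all genes) and 2 in osm-8 worms (12.4%). In osm-7 worms 1 was higher and 1 lower, and in osm-11 worms 0 were higher and 3 lower. With all 30 arrays in 1 fit, counts past the test were 2 at 1 h, 0 at 6 h, 4 in osm-8 worms, 5 in osm-11 worms, 16 in dpy-9 worms, 13 in dpy-10 worms, 1 in dpy-9 against osm-8, 2 in dpy-10 against osm-8 and 2 by the F test. Those lower were 2 in osm-8 worms (32.9% of all genes) and 3 in osm-11 worms (13.5%). With arrays centred, medians were 0.0809 at 15 min, 0.00188 at 1 h, -0.0424 at 6 h, -0.0830 in osm-7 worms, 0.0252 in osm-8 worms, -0.0465 in dpy-9 worms and -0.0411 in dpy-10 worms, and counts were 0 at 6 h, 1 after 1 generation, 1 in osm-7 worms, 1 in osm-11 worms, 2 in dpy-9 worms and 3 in dpy-10 worms. After quantile normalization counts were 1 after 1 generation, 1 in osm-7 worms, 5 in osm-8 worms, 1 in dpy-9 against osm-8, 2 in dpy-10 against osm-8 and 1 past 3-fold, with medians of -0.0786 in osm-7 worms, -0.0697 in osm-11 worms and -0.101 in dpy-10 worms. When probe sets marked _x_at or _s_at were left out, which left 34 genes, counts were 0 at each exposure, in osm-7, osm-8 and osm-11, in osm-8 against osm-7, by the F test and past 3-fold, and 1 in dpy-9 worms and in dpy-10 worms. All probe sets of rpl-11.2 and rpl-23A.1 carry such a mark, so both genes were dropped. This setting therefore cannot show whether their rises hold. Counting each of the 109 probe sets gave 2 at 15 min, 2 at 1 h and 2 by the F test. At an adjusted p of at most 0.05 counts were 2 at 15 min, 2 at 1 h, 4 in osm-8 worms, 5 in osm-11 worms, 17 in dpy-9 worms, 16 in dpy-10 worms, 1 in dpy-9 against osm-8, 1 in dpy-10 against osm-8 and 2 by the F test. With a variance prior that follows intensity, chosen after seeing the data, they were 2 at 15 min, 2 at 1 h, 4 in osm-8 worms, 5 in osm-11 worms, 19 in dpy-9 worms, 20 in dpy-10 worms, 2 in dpy-9 against osm-8, 2 in dpy-10 against osm-8 and 2 by the F test. With the replicate number as a block, counts were 0 at 6 h, 1 after 1 generation, 1 in osm-7 worms, 0 in osm-11 worms, 4 in dpy-9 worms and 5 in dpy-10 worms. Deviations from the group mean were correlated between each sample and the same-numbered N2 isotonic sample. Over these 27 pairs of samples the correlation was -0.432 to 0.276, with 7 over 0.1, so the numbers were not taken to pair samples. Leaving out each array in turn gave 1 to 2 at 15 min, 1 to 2 at 1 h, 0 to 1 at 6 h, 1 to 2 after 1 generation, 0 to 1 in osm-7 worms, 2 to 2 in osm-8 worms, 0 to 2 in osm-11 worms, 4 to 4 in dpy-9 worms, 4 to 6 in dpy-10 worms, 1 to 2 by the F test, 2 to 2 past 3-fold and a median of -0.21 to -0.12 in osm-11 worms. The cause of these changes was not tested, apart from the genes dropped with the marked probe sets. With 3 arrays a group the precision is limited by their number, and signal near background limits rpl-42, the 1 member left out by the filter.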
